A study of Mus musculus with 2 samples.

Results

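Nrxn2, Nrxn3, Nlgn1, Nlgn2, Nlgn3, Lrrtm1, Lrrtm2, Lrrtm3 and Lrrtm4 encode neurexins, neuroligins and leucine-rich repeat transmembrane (LRRTM) proteins, which adhere to each other across the synapse. Their peaks were chosen by gene symbol: the authors' annotation assigned 161 of the 99797 peaks of the library (0.161%) to these 9 genes, and 8 of the 9 genes had at least 1 peak. The study used CUT&Tag, in which an antibody directs a transposase to the chromatin around its target, to map PARIS, a zinc-finger transcriptional repressor, in the mouse hippocampus. It comprises 1 library made with an antibody against FLAG and 1 made with IgG as a negative control. Both came from untreated C57BL/6J mice with the genotype CamK-PARIS, so the groups differ only in the antibody, and animals of another genotype were not analysed here. Age, number of animals and the promoter that drives PARIS are not given in the sources used here. The peaks are those of the anti-FLAG library, and the IgG library entered only through the authors' peak calling. With 1 library per antibody no value carries replicate error, no test between conditions was possible, and each interval below covers counting error only. Sequencing depth is unknown from the files. A peak list holds no expression values, so the tissue label was not checked against marker genes.

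Neurexins sit on the presynaptic membrane. Each neurexin gene is known for producing a long alpha form from a promoter at its 5′ end and a short beta form from a promoter deep inside the gene, which joins the exons of the shared 3′ part. Neuroligins and LRRTM proteins are postsynaptic ligands of neurexins that compete for them and help to organise excitatory or inhibitory contacts. Several of these genes rank among the long genes of the genome, whereas others are compact or lie inside the introns of alpha-catenin genes.

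The assigned peaks were spread unevenly. Nrxn3 had 64, Nrxn2 had 24, Lrrtm4 had 21, Nlgn1 had 18, Lrrtm3 had 12, Lrrtm1 had 10, Nlgn3 had 7, Nlgn2 had 5 and Lrrtm2 had 0. Of the 161 peaks, 119 (73.9%, 95% Clopper-Pearson interval 66.4 to 80.5) were annotated to introns, against 38.0% of all peaks. Promoters, taken by the authors as within 3 kb of a transcription start, held 28 (17.4%, 11.9 to 24.1), against 24.6% of all peaks. Distal intergenic positions held 12 (7.45%, 3.91 to 12.7), against 31.9%, and 2 peaks lay in exons. The introns include those of other genes, such as 5 peaks of Lrrtm1 in an intron of Ctnna2 and 3 of Nrxn3 in one of Gm48664. Of the 161 peaks, 128 lay between the first and last base of their own gene and 33 outside. This split and the shares in introns, promoters and intergenic positions also depend on how long the genes are. The 5 genes of at least 100 kb had 139 of the 161 peaks, and no shares for the peaks of other long genes are given.

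The height of a peak is given as the authors' maximum signal. The middle value over the assigned peaks was 110 and the quartiles were 80 and 145, and over all peaks these were 101, 66 and 135. In 91 of the 161 peaks (56.5%, 48.5 to 64.3) it was above the median of the list, as it was in 49.8% of all peaks. The highest 10% of all peaks included 25 assigned to these genes, namely 10 of Nrxn3, 9 of Nrxn2, 3 of Nlgn2 and 1 each of Nlgn1, Nlgn3 and Lrrtm1. Most peaks of the library have a constant height over their whole width, meaning a total signal of at least 99% of maximum signal times width, and the rest vary in height. Varying height was seen in 63 of the 161 peaks (39.1%, 31.5 to 47.1), against a background of 36.7% of all peaks. The share was 45.5% for the 88 neurexin peaks, 43.3% for the 30 neuroligin peaks and 23.3% for the 43 Lrrtm peaks.

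The density over gene bodies was compared next. A gene body runs from the first to the last base of the gene in GENCODE M21 (mm10), and a peak counts as inside when the middle of its region of maximum signal lies there, whatever gene the authors assigned it to. The 9 bodies span 3659 kb and held 141 peaks, of which 128 were assigned to the gene itself and 13 to another gene. That is 3.85 peaks per 100 kb, or 1.07 times (0.898 to 1.26, exact Poisson) the mean of the same chromosomes. This near-average value combined a compact and a long group. The 5 bodies of at least 100 kb held 129 peaks, or 3.59 per 100 kb, with an interval from 0.827 to 1.18 times their chromosomes, and the 4 shorter bodies held 12 peaks at 6.21 times (3.21 to 10.8). Counting only the highest 10% of peaks, all 9 bodies together held 24 and stood at 1.97 times their chromosomes. Of these 24 peaks, 9 lay in Nrxn2 and 10 in Nrxn3, and Lrrtm1, Lrrtm3 and Lrrtm4 held 0. Ratios for the highest 10% of peaks, here and below, have no value for other genes beside them, so they describe these genes only. A density of at least 2 times the chromosome mean was found for 4 of the 9 genes, namely Nrxn2, Nlgn2, Nlgn3 and Lrrtm1, and for 29.8% of all 21938 protein-coding genes. By length, it was 1 of the 5 long genes, against 20.5% of the 2492 protein-coding genes of at least 100 kb, and 3 of the 4 short ones, against 31.0%.

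**Figure D1:**
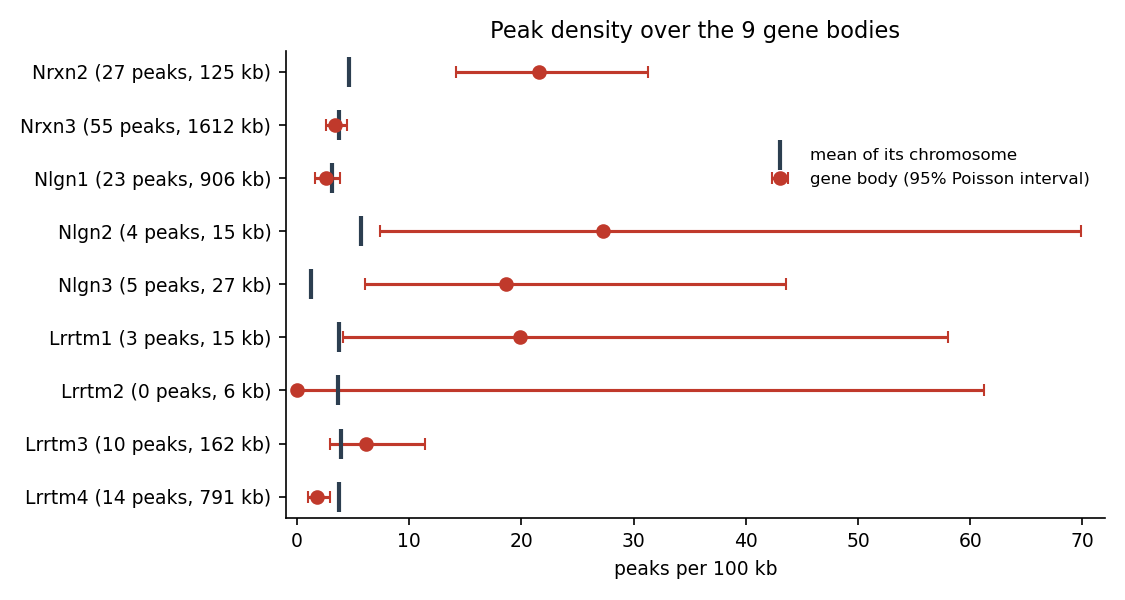
Peaks per 100 kb over the 9 gene bodies (points) with exact Poisson 95% intervals (bars), beside the mean of the same chromosome (dark ticks), in the anti-FLAG library. Nrxn2, at 21.5 peaks per 100 kb, is the only gene of at least 100 kb whose interval lies wholly above its chromosome, and Lrrtm4, at 1.77, the only one whose interval lies wholly below.

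Nrxn2 encodes a neurexin with alpha and beta forms (chromosome 19, 6418731 to 6544169, plus strand, 125.4 kb). Its body held 27 peaks, or 21.5 per 100 kb (14.2 to 31.3), which was 4.66 times (3.07 to 6.79) the chromosome mean and rank 17 of the 2492 long genes. Peaks covered 17.1% of the body, 18 of the 27 varied in height, and 19 of the peaks fell in a single window of 50 kb in the 3′ part of the gene. In 3 equal parts from the start of the gene the counts were 4, 10 and 13. The highest peak, of 362, lay in intron 19 of 22 at 6510440 to 6511048, and the widest, of 4458 bp with a maximum signal of 341, at 6496780 to 6501237 over the internal start of the short coding transcripts. The GENCODE body reaches into the neighbouring Slc22a12, to which 4 of the 27 peaks were assigned. With the shorter RefSeq body of 114.5 kb the count was 25 and the ratio 4.73, with constant-height peaks left out the ratio was 8.05, and among the highest 10% of peaks it was 14.2.

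Nrxn3 (chromosome 12, 88722876 to 90334935, plus strand, 1612 kb) had the most peaks of these genes, yet a density close to its chromosome. The body held 55 peaks, 3.41 per 100 kb (2.57 to 4.44), or 0.904 times (0.681 to 1.18) the chromosome mean, which placed it at the 40.5th percentile of long genes. Among the highest 10% of peaks alone, of which the body held 10, the ratio was 1.87. Peaks covered 1.45% of the body. The counts in 3 equal parts from the start were 25, 19 and 11, and peaks with a maximum signal of at least 200 numbered 5, 4 and 1. No peak was found in the last 183.9 kb of the gene. Intron 1 of 7 of one annotated transcript, 71.3 kb long, held 8 peaks or 11.2 per 100 kb. It also contained the highest peak of all 161, of 662 at 88737344 to 88738934, and another of 452 at 88727230 to 88727604. The second highest, of 579, lay in intron 4 of 7 at 89129053 to 89130112. Their heights exceeded 99.9%, 99.5% and 99.8% of all peaks, in this order.

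**Figure D2:**
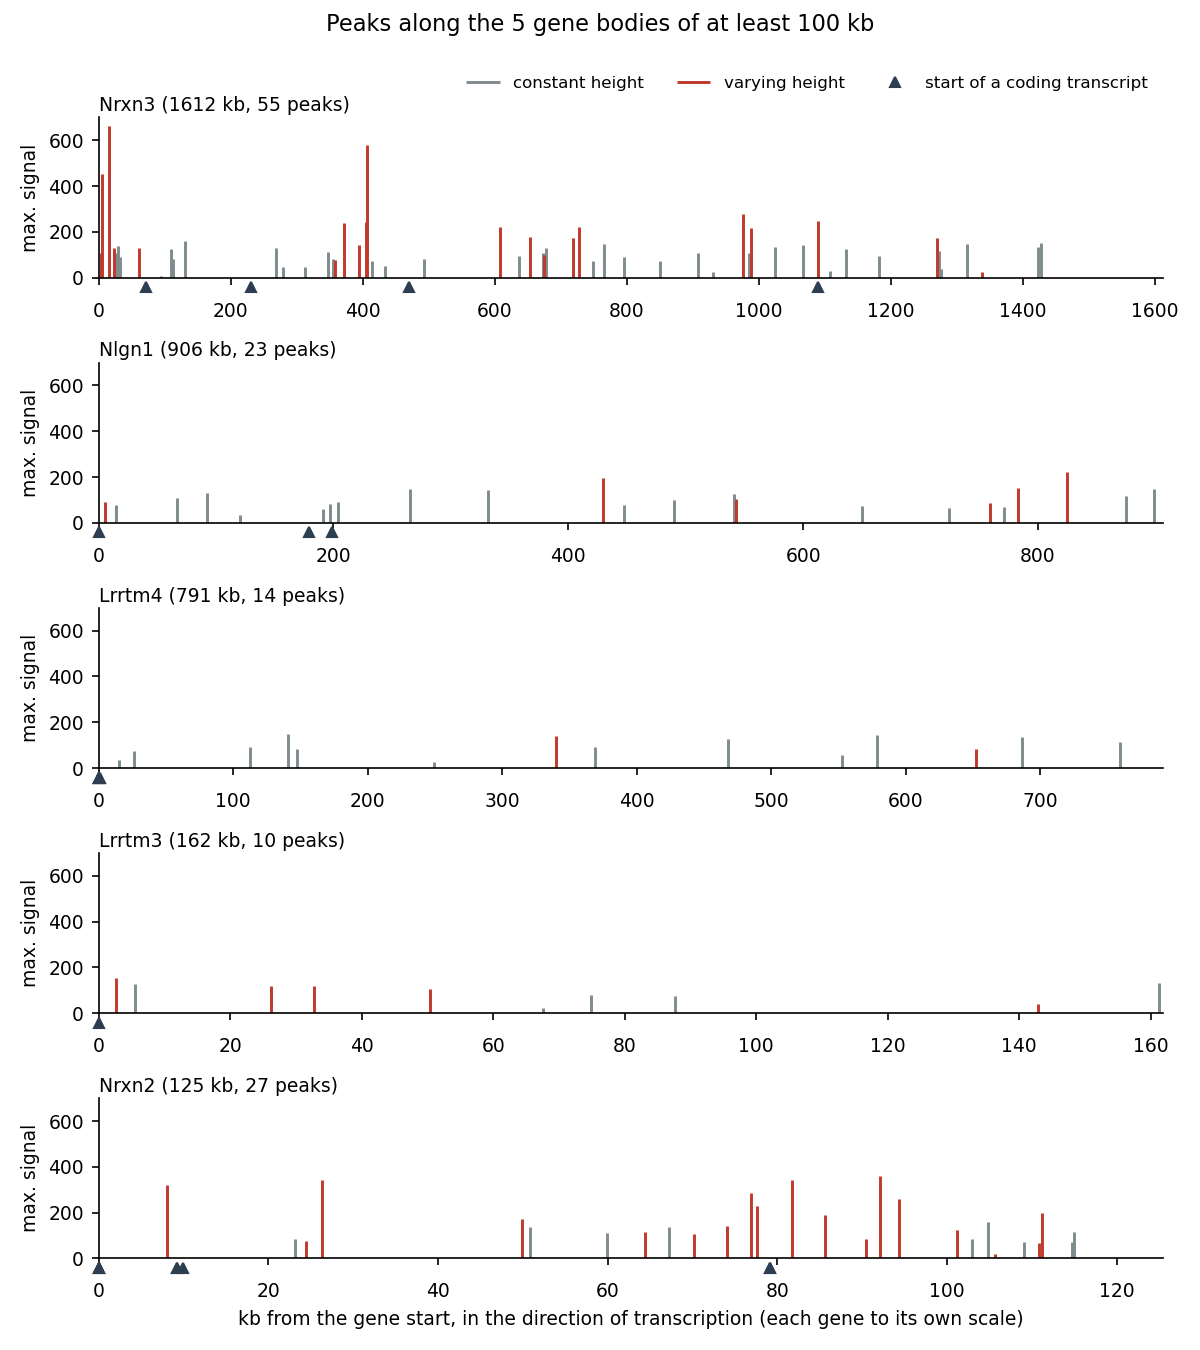
Position (kb from the gene start, each gene to its own scale) and maximum signal of every peak inside the 5 gene bodies of at least 100 kb, coloured by shape, with the starts of coding transcripts as triangles. The 27 peaks of Nrxn2 crowd the 3′ part of the gene, while the 55 of Nrxn3 are most frequent near its 5′ end, where the peak of 662 stands.

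Of the neuroligins, Nlgn1, which acts mainly at excitatory synapses, is the long gene (chromosome 3, 25426215 to 26332460, minus strand, 906 kb). Its body held 23 peaks, 2.54 per 100 kb (1.61 to 3.81), or 0.818 times (0.519 to 1.23) the chromosome mean, at the 28.3rd percentile of long genes. The peaks were low, with a median maximum signal of 92 and a highest value of 194 among the 18 assigned to it, and 14 of these 18 had a constant height. The 7 peaks in its 3′ part, from 724.4 kb after the start onwards, were assigned by the authors to the neighbouring Naaladl2, and the highest of these reached 222. The authors' assignment therefore leaves out 7 of the 23 peaks in this gene, including the highest.

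The 2 compact neuroligin genes differed from Nlgn1 in scale. Nlgn2, the neuroligin of inhibitory synapses (chromosome 11, 69823122 to 69837784, minus strand, 14.7 kb), held 4 peaks, or 27.3 per 100 kb (7.43 to 69.8) and 4.82 times (1.31 to 12.3) the chromosome mean. The ratio of Nlgn2 was 2.87, from 2 peaks, with peaks within 1 kb merged. It was 12.1, from 4 peaks, with constant-height peaks left out and 20.05, from 2 peaks, among the highest 10% of peaks. All 5 peaks assigned to Nlgn2 varied in height, with maximum signals of 109, 143, 230, 236 and 421. Peaks covered 32.5% of the Nlgn2 body, the largest share of the 9 genes. Nlgn3, found at both kinds of synapse (chromosome X, 101299168 to 101325963, plus strand, 26.8 kb), held 5 peaks, or 18.7 per 100 kb (6.06 to 43.5). This was 15.5 times (5.02 to 36.1) the mean of chromosome X, which is low at 1.21 peaks per 100 kb, whereas the autosomes ranged from 3.10 to 5.66. Under the same 3 settings the ratio of Nlgn3 was 10.1 from 3 peaks, 31.1 from 3 peaks and 45.2 from 1 peak, so these values rest on very few peaks. The 7 peaks assigned to Nlgn3 had maximum signals from 77 to 350, with a median of 93. On the absolute scale Nlgn3 stood at the 88.6th percentile of all protein-coding genes and Nlgn2 at the 94.0th.

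The LRRTM genes spanned most of this range. Lrrtm4, whose product also binds heparan sulfate proteoglycans (chromosome 6, 80018877 to 80810143, plus strand, 791 kb), held 14 peaks, 1.77 per 100 kb (0.967 to 2.97), or 0.479 times (0.262 to 0.803) the chromosome mean. This was the 17.6th percentile of long genes. Of the 21 peaks assigned to Lrrtm4, 18 had a constant height, the highest reached 150, and 0 were among the highest 10% of the list. With constant-height peaks left out, 2 peaks remained in the Lrrtm4 body and the ratio was 0.196. Lrrtm3 (chromosome 10, 63928472 to 64090277, minus strand, 161.8 kb) held 10 peaks, 6.18 per 100 kb (2.96 to 11.4), or 1.60 times (0.766 to 2.94) the chromosome mean, at the 68.5th percentile. Lrrtm1 (chromosome 6, 77242689 to 77257791, plus strand, 15.1 kb) held 3 peaks, or 19.9 per 100 kb (4.10 to 58.0) and 5.37 times (1.11 to 15.7) the chromosome mean. All 3 had a constant height, with maximum signals of 33, 50 and 70. Among peaks above the median of the list or of varying height this GENCODE body held 0. With peaks within 1 kb merged, it had 1 peak and a ratio of 2.02, and without the 3 kb after the gene start 1 peak and 2.23. The longer RefSeq body of 30.7 kb held 6 peaks at a ratio of 5.29, among them a peak of 266 of varying height. Like Lrrtm4, Lrrtm3 held 0 of the highest 10% of peaks. The intervals of Nrxn3, Nlgn1 and Lrrtm3 all included the mean of their chromosome.

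Lrrtm1, Lrrtm2 and Lrrtm3 are each nested in an alpha-catenin gene, a family that links cadherins to actin. All 10 peaks assigned to Lrrtm1 lay within the body of Ctnna2, and all 12 assigned to Lrrtm3 within that of Ctnna3. Ctnna2 held 43 peaks in all, of which 17 were assigned to Ctnna2 itself, 16 to 6330415B21Rik and 10 to Lrrtm1. Ctnna3 held 28, of which 13 were assigned to Ctnna3, 12 to Lrrtm3 and 3 to Gm28881. The peak assigned to Lrrtm3 from farthest away lay 513476 bp upstream of it in intron 12 of 17 of Ctnna3, with a maximum signal of 15. Lrrtm2 (chromosome 18, 35209003 to 35215024, minus strand, 6.02 kb) had no peak, and the nearest lay 36232 bp from its start with a maximum signal of 118. A body this short with 0 peaks allows up to 61.3 per 100 kb. Its host Ctnna1 held 3 peaks, all assigned to Ctnna1.

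**Figure D3:**
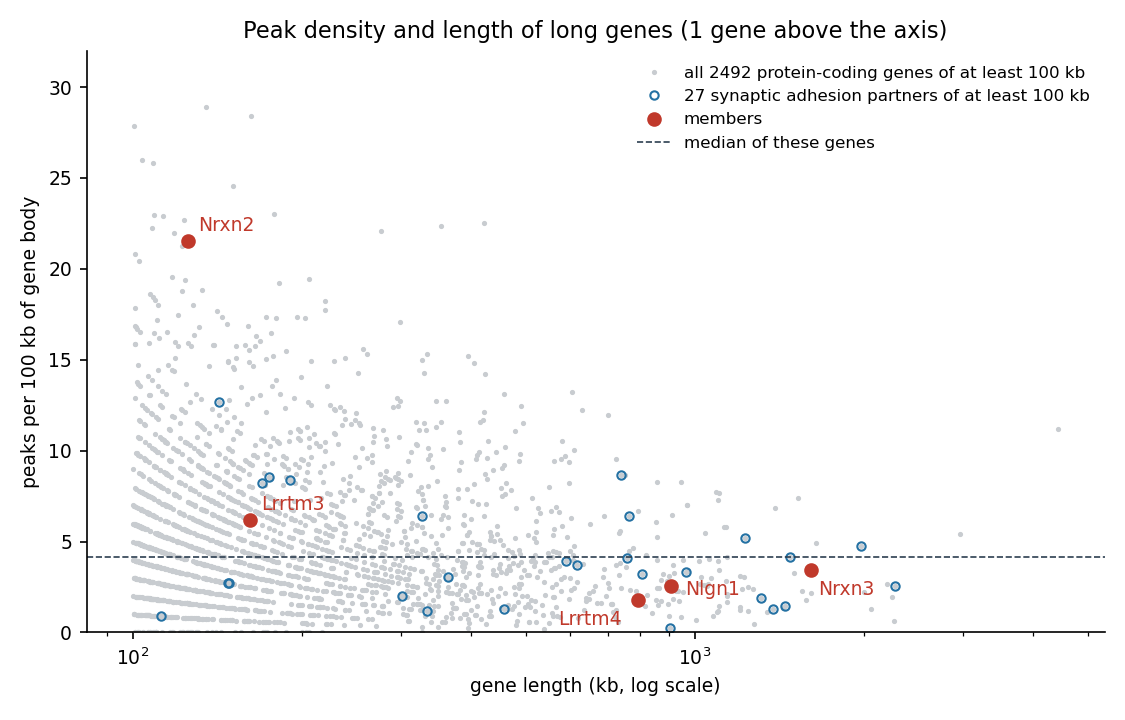
Peaks per 100 kb against gene length (log scale) for the 2492 protein-coding genes of at least 100 kb (grey), for 27 synaptic adhesion partners (blue rings) and for the 5 long genes named in red, with the median of all these genes, 4.17, as a dashed line. Nrxn2 and Lrrtm3 lie above the median, and Nrxn3, Nlgn1 and Lrrtm4 below it.

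Genes of almost the same length showed how wide the spread at a given length is. The 2 long genes closest in length to Nrxn2 were Map4k4, with 15.9 peaks per 100 kb, and Gbp8, with 0.798. For Nrxn3 they were Csmd1, with 4.93, and Fhit, with 2.17, which lay to either side of its 3.41. Dpp6 with 6.48 and Cntnap5a with 2.33 stood beside Nlgn1, at 2.54. Ptprn2 with 6.70 and Inpp4b with 2.29 were both denser than Lrrtm4, at 1.77. Fbxl13 with 4.33 and Ankrd31 with 1.85 were both less dense than Lrrtm3, at 6.18.

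A peak within 1 kb of the gene start, the 5′-most start in GENCODE M21, was present for 5 of the 9 genes (Nrxn3, Nlgn1, Nlgn2, Nlgn3 and Lrrtm1), against 39.3% of all protein-coding genes. Among the long genes it was 2 of 5, against 51.2%. The 5 peaks were of very unequal height, and 3 of the 9 genes had one above the median of the list, a count without a share over all genes beside it. That of Nlgn2 overlapped the start itself, from 69837433 to 69838614, with a maximum signal of 421, and a second peak of 230 overlapped both of its other coding starts. In Nlgn3 a peak of 350 began 244 bp after the start, and in Lrrtm1 a peak of 266 ended 10 bp before it. In Nlgn1 the peak lay 737 bp upstream and reached only 45. In Nrxn3 it lay 141 bp upstream of a start used only by non-coding transcripts and reached 11, which is higher than 1.05% of all peaks. The window of Nlgn2 also reached a peak of 236, and that of Lrrtm1 also held 2 low peaks of 50 and 70. With these GENCODE starts the nearest peak was thus above 200 in the 3 compact genes and below 50 in the 2 long ones. With RefSeq gene starts the count was 4 of the 9 genes, without Lrrtm1, whose RefSeq body starts at 77229210. This count has no share over all RefSeq starts beside it.

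**Figure D4:**
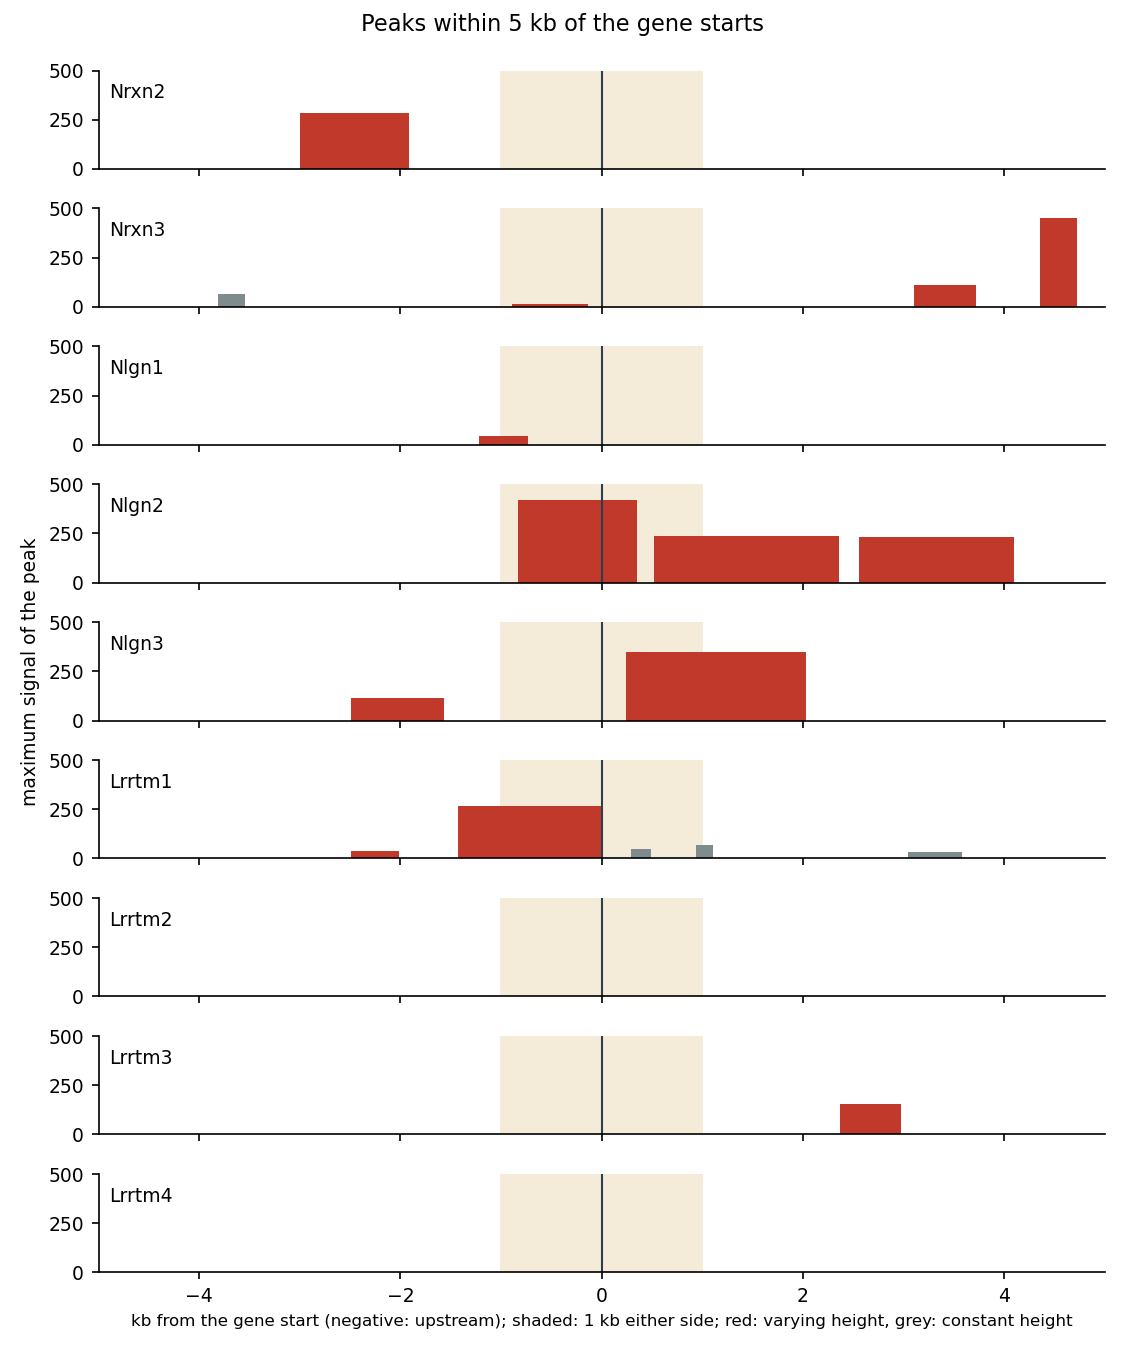
Peaks within 5 kb of the 9 gene starts, in kb along the direction of transcription, with the maximum signal of each peak as its height and 1 kb either side of the start shaded. Tall peaks reach into the shaded window in Nlgn2 (421), Nlgn3 (350) and Lrrtm1 (266, beside low ones of 50 and 70). The windows of Nlgn1 (45) and Nrxn3 (11) hold a low peak alone, and those of Nrxn2, Lrrtm2, Lrrtm3 and Lrrtm4 hold none.

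Of the 4 coding starts of Nrxn3, only the internal start of the short transcripts had a peak within 1 kb, whereas in Nrxn2 tall peaks lay at the internal start and also near a coding start in the 5′ part. In Nrxn3 the coding starts at 88794504, 88953399 and 89193106 were 9748, 37484 and 23110 bp away from the nearest peak. The internal coding start at 89812483 had a peak of 249 at 89811555 to 89812373, 110 bp upstream. In Nrxn2 the internal coding starts at 6497828 and 6497835 lay under the peak of 4458 bp already described. The 5′ coding start of Nrxn2 at 6418731 was 1916 bp from a peak of 285, and a further coding start at 6427923 was 289 bp from a peak of 321. Its coding starts at 6418738, 6418765 and 6428646 had no peak within 1 kb. Over all annotated starts, 7 of 15 in Nrxn2 and 7 of 12 in Nrxn3 had a peak within 1 kb, as did 1 of 4 in Nlgn1, 3 of 4 in Nlgn2, 6 of 6 in Nlgn3 and 4 of 4 in Lrrtm1. None of the 2 starts of Lrrtm2, the 4 of Lrrtm3 or the 7 of Lrrtm4 had one. Starts close together often share a peak, such as that of 350 in Nlgn3 and that of 11 in Nrxn3. These counts have no share over all annotated starts beside them, so they describe these genes only. The nearest peak was 2373 bp away for Lrrtm3, with a maximum signal of 153, and 14807 bp away for Lrrtm4, with one of 34.

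The sequences just upstream of 3 starts with a tall peak show how different these regions are. They are the 250 bases before the RefSeq start (GRCm38.p6), 5′ to 3′ on the strand of the gene, and capitals mark the GC box GGGCGG, searched on both strands. The Nlgn2 region (chr11:69837785-69838034, minus strand) lay wholly under the peak of 421, the Nrxn3 region before the short form (chr12:89812233-89812482, plus strand) lay to 56.4% under the peak of 249, and the Lrrtm1 region (chr6:77242227-77242476, plus strand) lay wholly under the peak of 266.
Nlgn2: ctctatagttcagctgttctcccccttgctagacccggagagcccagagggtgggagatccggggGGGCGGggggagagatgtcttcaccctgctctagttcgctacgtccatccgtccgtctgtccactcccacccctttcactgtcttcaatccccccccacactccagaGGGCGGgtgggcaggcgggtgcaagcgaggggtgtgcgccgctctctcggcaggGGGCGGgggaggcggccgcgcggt
Nrxn3 short form: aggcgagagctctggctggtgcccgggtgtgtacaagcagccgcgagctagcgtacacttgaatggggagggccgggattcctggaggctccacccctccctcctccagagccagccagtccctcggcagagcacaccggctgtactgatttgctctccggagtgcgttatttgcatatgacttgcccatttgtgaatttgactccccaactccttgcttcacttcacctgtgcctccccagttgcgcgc
Lrrtm1: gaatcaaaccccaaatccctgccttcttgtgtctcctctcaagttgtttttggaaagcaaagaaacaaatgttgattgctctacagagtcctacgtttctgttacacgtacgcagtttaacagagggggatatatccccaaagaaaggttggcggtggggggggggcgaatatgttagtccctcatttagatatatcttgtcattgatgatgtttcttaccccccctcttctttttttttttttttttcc

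The Nlgn2 region has 3 GC boxes, 18 CpG dinucleotides and a GC content of 67.6%. The Nrxn3 region has no GC box and 12 CpG dinucleotides, and the Lrrtm1 region has no GC box, 5 CpG dinucleotides and a GC content of 42.0%. Over 32851 RefSeq promoters of the same length the median was 6 CpG dinucleotides and a GC content of 52.4%, and 32.7% held a GC box. A tall peak therefore covered a GC-rich stretch before the start in Nlgn2 and a stretch of below-median GC content in Lrrtm1. The RefSeq start used here for Lrrtm1, at 77242477, lies upstream of its GENCODE gene start at 77242689. After that GENCODE start, the 200 bp windows at the Lrrtm1 peaks of 50 and 70 had GC contents of 64.5% and 69.5%.

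The insulin response sequence, TATTTTT or TATTTTG, is the element to which PARIS is reported to bind. It was searched on both strands, where its reverse complements read AAAAATA and CAAAATA, in windows of 200 bp at the region of maximum signal. It occurred in 27 of the 161 windows (16.8%, 11.4 to 23.5), against 9.97% of all peaks. Windows 1000 bp to either side of the same peaks held it in 15.2%, and those beside all peaks in 13.6%. The pooled share of these genes combined Nrxn3, which lay above its flanks, with the other genes together, which lay below theirs. Nrxn3 contributed 19 of the 27. For Nrxn3 alone the share was 29.7% (18.9 to 42.4) of 64 windows, against 11.7% (6.71 to 18.6) of its flanking windows. For the other genes together it was 8 of 97 (8.25%, 3.63 to 15.6), against 17.5% of their flanks. Nrxn2, Nlgn2 and Lrrtm1 had 0 of 24, 0 of 5 and 0 of 10, Nlgn1 had 1 of 18, Nlgn3 had 2 of 7, Lrrtm3 had 2 of 12 and Lrrtm4 had 3 of 21.

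**Figure D5:**
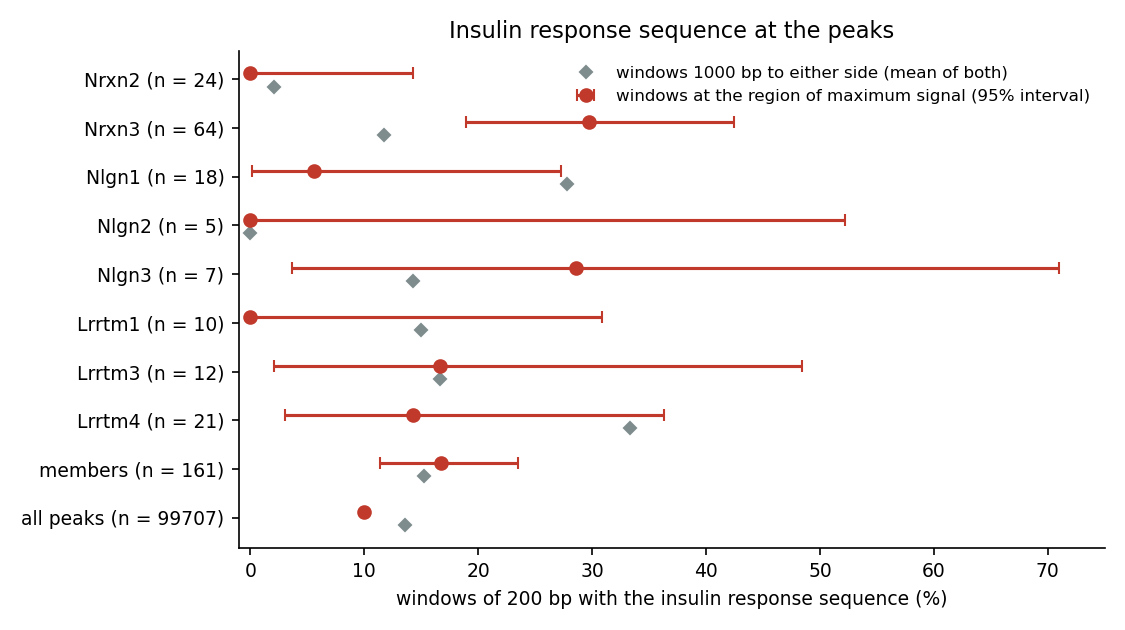
Share of 200 bp windows with the insulin response sequence at the region of maximum signal (points, with Clopper-Pearson 95% intervals) and 1000 bp to either side (diamonds), for the 8 genes with peaks, for these genes together and for all peaks. Nrxn3, at 29.7%, lies above its flanks, and in the other genes the interval includes the flank share except in Nlgn1, where 5.56% stands below 27.8%.

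Base composition was set beside this difference. The Nrxn3 windows had a mean GC content of 44.5% ± 6.48 (SD over windows), against 49.0% ± 8.92 for all peaks, 54.8% for Nrxn2 and 62.5% for Nlgn2. Among all peaks with a GC content within 1 SD of the Nrxn3 mean, 11.6% held the sequence, and on chromosome 12 as a whole 10.8% did. Windows of Nlgn1, Lrrtm3 and Lrrtm4 had GC contents of 42.7%, 42.8% and 43.0%, as low as Nrxn3, with shares of 5.56%, 16.7% and 14.3%. Within Nrxn3 the sequence was found in 14 of 41 constant-height peaks (34.1%) and in 5 of 23 of varying height (21.7%). The windows of 1 gene share a locus and are not replicates.

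The highest peaks of Nrxn3 were not those with the sequence: it was absent from the windows of the peaks of 662, 579 and 452, and among the 19 peaks that held it the highest reached 237. The central 120 bases at 5 Nrxn3 peaks are given to show this contrast, on the plus strand of mm10, with the insulin response sequence in capitals. The first 2 are the highest peaks of the gene, without the sequence (chr12:88738552-88738671, maximum signal 662, and chr12:89129527-89129646, maximum signal 579). The other 3 are the highest intronic peaks that hold it in these bases (chr12:89710566-89710685, maximum signal 217, chr12:90151003-90151122, maximum signal 152, and chr12:90038653-90038772, maximum signal 147).
Peak of 662: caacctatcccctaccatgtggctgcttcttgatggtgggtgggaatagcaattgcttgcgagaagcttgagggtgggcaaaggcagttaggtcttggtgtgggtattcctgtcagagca
Peak of 579: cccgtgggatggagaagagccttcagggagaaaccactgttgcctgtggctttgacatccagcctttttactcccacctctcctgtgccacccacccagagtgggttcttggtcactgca
Peak of 217: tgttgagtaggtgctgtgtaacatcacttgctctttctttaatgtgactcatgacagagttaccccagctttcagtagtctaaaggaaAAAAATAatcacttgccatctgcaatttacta
Peak of 152: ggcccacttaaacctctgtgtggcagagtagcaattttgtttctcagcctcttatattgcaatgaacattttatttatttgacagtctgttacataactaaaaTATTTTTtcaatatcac
Peak of 147: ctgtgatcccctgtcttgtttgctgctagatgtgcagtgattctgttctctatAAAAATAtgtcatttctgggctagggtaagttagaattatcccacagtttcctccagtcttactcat

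The GC content of these stretches was 52.5% and 56.7% for the first pair and 37.5%, 32.5% and 40.8% for the other 3. A match to these letters is a description of the sequence and no evidence of contact.

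A list of 55 partner genes was set beside these, whose products bind neurexins, neuroligins or LRRTM proteins or work beside them at the synapse. Of the 55, 23 (41.8%) had a body density of at least 2 times the chromosome mean, against 29.8% of all protein-coding genes. The partner genes split by length as the adhesion genes above did. Of the 27 partner genes of at least 100 kb, 4 (14.8%) reached it, against 20.5% of long genes, and of the 28 shorter ones 19 (67.9%) did, against 31.0%. A peak within 1 kb of the gene start was found for 38 of the 55 (69.1%), against 39.3% of all protein-coding genes. By length, it was found for 17 of the 27 long partners (63.0%), against 51.2% of long genes. Of the 28 shorter partners 21 (75%) had one, without a share over all shorter genes beside it. The densest long partner was Mdga1, whose product binds neuroligins and blocks their contact with neurexins, at 12.7 peaks per 100 kb and 2.77 times its chromosome. The teneurin gene Tenm4 had 8.65 per 100 kb, the latrophilin gene Adgrl2 had 8.57, and Apba1, an adaptor of the neurexin tail, had 8.39. The least dense were Tenm1, another teneurin, with 0.222, the glypican gene Gpc4 with 0.891, Cask, which binds the neurexin tail, with 1.20, and Gphn, the scaffold of inhibitory synapses, with 1.31. The first 3 of these lie on chromosome X, where Tenm1 stood at 0.184 times (0.0223 to 0.664) the chromosome mean, Gpc4 at 0.738 times and Cask at 0.991 times. Nrxn2, at 21.5, was denser than all 27 long partners, and Lrrtm4, at 1.77, lay below their median of 3.31.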

How the data were processed

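Per the labels' protocols, Bowtie2 placed the trimmed read pairs on mm10, reads of low quality and duplicates were dropped, and the authors ran SEACR with the IgG library as its control. Versions, the SEACR mode, the scaling of the coverage and the annotation tool are not given in the sources used here. The deposited peak list gives total and maximum signal per peak, and a second deposited table places each region of maximum signal relative to genes (signed distance in bp). The total signal repeated there matched the list for 100% of peaks. Signal tracks were not used here.

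Members are the peaks whose symbol in that table is one of the 9 genes. Members and lists were chosen with earlier results of these data known. Bodies and starts came from GENCODE M21, promoters from RefSeq (GRCm38.p6), and 32 of the 33 transcripts assigned to member peaks were in GENCODE M21. Chromosome densities leave out assembly gaps. The genes named are the 9 genes with their nearest, highest and start-overlapping peaks, their 3 catenin hosts, of the partner list the 4 most and 4 least dense of at least 100 kb, and the 2 genes closest in length to each long member. Other peaks were added to show positions. Intervals are 95% exact Poisson (densities) or Clopper-Pearson (shares). Of the peaks, 99707 on the main chromosomes entered the motif search. Alternatives covered peak height, shape, width and merging, the definition of body and start, windows and thresholds. Python 3.11.15, pandas 2.3.3, SciPy 1.17.1 and pysam 0.24.0 were used, and the counting code was tested on simulated data.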

Additional observations from a re-analysis of the deposited data

How the results depend on the processing

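The 14 results were recomputed under 114 alternatives. With peaks of maximum signal above the median, the highest 10% of peaks, or constant-height peaks left out, the number of assigned peaks was 91, 25 and 63, smaller by construction. It was 118 for peaks at least 200 bp wide and 145 with peaks within 1 kb merged. The pooled body density was 1.26 times the chromosome mean for peaks above the median and 1.97 times for the highest 10%, and otherwise between 0.902, without Nrxn2, and 1.24. The number of genes with a start peak was 3 in both of these peak sets and 4 to 7 otherwise. These counts have no share over all protein-coding genes beside them, and a wider window can only raise the count for any set of genes. The share of varying height was 50.8% for peaks at least 200 bp wide, where all peaks gave 47.5%. The motif share was 26.1% in 400 bp windows, where all peaks gave 19.3%, and 8.25% without Nrxn3. Over its GENCODE body the density of Lrrtm1 fell to 0 with peaks above the median, with the highest 10% and with constant-height peaks left out. The 3 peaks in that body are low and of constant height. The density of Nrxn2 stayed between 4.03 and 14.2 times its chromosome. Nrxn3 rose to 1.87 among the highest 10% of peaks. Of the 80 alternatives for single genes, 69 stayed within the counting interval, among them 2 for Nrxn3 that crossed from below to above the chromosome mean, at 1.15 with peaks above the median and 1.002 with peaks merged. Leaving out Nrxn2 or Nrxn3 and the RefSeq bodies and starts were chosen after seeing the data. Where no construction is named, the cause was not tested. No paired analysis was possible because each antibody had 1 library, and for the same reason no library could be left out.

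One library gives no error between animals, and depth is unknown, so a gene without a peak is not shown to lack PARIS. Bodies under 30 kb hold at most 5 peaks, which leaves wide intervals. Overlapping genes share peaks, and the authors' assignment gives each to 1 gene.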

Other observations

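The partner genes named here were picked out after their values were seen. Nxph4, which encodes a neurexophilin, a ligand of the long neurexin forms, held 7 peaks in a body of 9.09 kb, or 77.0 per 100 kb (31.0 to 159, exact Poisson). Ptprs, a presynaptic receptor phosphatase, held 22 peaks in 64.1 kb, or 34.3 per 100 kb (21.5 to 52.0), which was 7.51 times its chromosome mean. Slitrk3, with 4 peaks, and Slitrk1, with 2, were denser than Ptprs, at 38.0 and 37.3 per 100 kb. Dlg4, the scaffold protein PSD-95 that binds neuroligins at excitatory synapses, held 8 peaks in 30.6 kb, or 26.2 per 100 kb (11.3 to 51.5). The other neurexophilin genes were less dense than Nxph4. Nxph2, among the 7 partners without a peak in the body, held 0 peaks in 80.7 kb, which allows up to 4.57 per 100 kb. Nxph3 held 1 peak in 4.73 kb, and the long Nxph1 held 6 in 300.6 kb, or 0.540 times (0.198 to 1.18) its chromosome mean.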
